A study of Mus musculus with 8 samples.

Results

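Gpatch1 and the genes beside it on mouse chromosome 7 were followed through RNA-seq of embryonic stem cells, which are pluripotent cells derived from the early embryo. The 10 genes, of 55291 gene symbols in the count tables, were Pepd, Cebpg, Lrp3, Gpatch1, Rhpn2, Faap24, Cep89, Tdrd12, Nudt19 and Ankrd27, in order along the chromosome. Gpatch1 was chosen by its lower counts in one of the cell lines, and the 9 neighbours from the stretch around it, of which they are not all the genes. The line difference is therefore given for Gpatch1 as a description. All 10 genes were above the expression filter, which 16371 genes passed.

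The cells belonged to 2 edited lines. In DHX35-dTAG cells the endogenous Dhx35 gene, and in GPATCH1-dTAG cells the endogenous Gpatch1 gene, had been given the FKBP12 F36V degron tag, through which the compound dTAG-13 directs the tagged protein to degradation. Each line received the solvent DMSO or 200 nM dTAG-13 for 4 h, and 2 libraries were made from each of the 4 groups. The edited cells went through puromycin selection and were grown from single picked colonies. The sources used here do not say which colony gave which library. None of the 8 libraries analysed here came from untagged cells, so an effect of the edit and a difference between colonies cannot be told apart. The labels name the cells E14, whereas their growth protocol, with serum, LIF, PD0325901 and CHIR99021, speaks of R1 cells. Whether the replicates were separate cultures is not stated, so the p-values measure only the spread between these libraries, which may be technical.

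GPATCH1 carries a G-patch, a short glycine-rich motif through which such proteins bind and switch on helicases of the DEAH-box family. Its partner DHX35 is one of these helicases, and together they take part in the rejection of spliceosomes that have assembled on unsuitable splice sites. The neighbours do unrelated work. Rhpn2 encodes a rhophilin, a scaffold protein. Faap24 encodes the partner of FANCM in the Fanconi anaemia pathway of DNA crosslink repair, and Cep89 a protein of the distal appendages of centrioles. Tdrd12 acts in the making of piRNAs, the small RNAs that silence transposons in germ cells.

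The remaining neighbours belong to metabolism, trafficking and transcription. Nudt19 encodes a peroxisomal hydrolase of coenzyme A. Ankrd27, also known as Varp, sorts cargo at endosomes, and Pepd encodes prolidase, which splits dipeptides that end in proline. Cebpg encodes a basic leucine zipper factor that pairs with other C/EBP proteins and with ATF4. Lrp3 is a member of the LDL receptor family.

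On GRCm38, with GENCODE M21 gene models, the 10 genes run from 34912379, the start of Pepd, to 35639226, the end of Ankrd27. Gpatch1 (ENSMUSG00000063808.14) lies on the minus strand from 35276536 to 35318440 and has 20 exons. Rhpn2 (ENSMUSG00000030494.13) starts 15730 bp from the Gpatch1 start and is read away from it, on the plus strand from 35334170 to 35392289. No protein-coding gene lies in the 15729 bp between them. On the other side, Lrp3 is 61037 bp from the end of Gpatch1. Rhpn2 runs tail to tail into Faap24, and their exons share 138 bp. Faap24 and Cep89 start 199 bp apart and are read in opposite directions. Exons of Nudt19 share 938 bp with the antisense gene B230322F03Rik, and exons of Lrp3 share 377 bp with Slc7a10. The strand setting of the counting is not given in the sources used here, so reads in these shared stretches cannot be assigned to one gene with certainty.

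The edited stretch is shown because it is where the degron was aimed. The coding part of Gpatch1 exon 1 is chr7:35318341-35318413, minus strand, read from the GENCODE M21 transcript, after a 5′ UTR of 27 bases. In the line that follows, the 20 capital letters mark the site of the guide RNA, which begins after the first 8 bases of the coding sequence and is followed by the PAM AGG, and 45 bases lie between the guide and the end of the exon.
Gpatch1 exon 1, coding part: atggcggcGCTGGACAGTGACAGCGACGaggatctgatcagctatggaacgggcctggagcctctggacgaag

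RefSeq promoter windows, 250 bases before to 50 after a start on GRCm38.p6, were at hand for 9 of the 10 genes, and Gpatch1 had none. The window of Rhpn2, chr7:35333987-35334286 on the plus strand, is shown. Among the 10 genes, Rhpn2 comes next to Gpatch1 both in position and in the size of its difference. Capitals mark the GC box GGGCGG, searched on both strands.
Rhpn2 promoter: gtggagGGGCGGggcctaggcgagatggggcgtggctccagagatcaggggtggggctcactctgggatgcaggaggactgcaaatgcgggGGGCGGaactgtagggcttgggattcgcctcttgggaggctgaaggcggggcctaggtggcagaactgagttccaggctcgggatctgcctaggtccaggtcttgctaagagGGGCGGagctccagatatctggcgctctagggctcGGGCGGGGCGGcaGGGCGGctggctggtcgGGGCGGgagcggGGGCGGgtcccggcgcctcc

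This window held 8 GC boxes, of which one pair overlaps, and 69.7% G and C. GGGCGG occurred at least once in 35.7% of all 32851 windows, whose median was 52.7% G and C. That share gives no background for a count of 8. The windows of Lrp3 (73.0%) and Cebpg (71.7%) held more G and C than that of Rhpn2. Among the 9 genes with a window, Nudt19 alone had no GGGCGG. The stretch between Faap24 and Cep89 is shown because 2 genes start in it whose levels can be set against each other. It is the window of Cep89, chr7:35396813-35397112, plus strand, with the GC box in capitals.
Cep89 promoter: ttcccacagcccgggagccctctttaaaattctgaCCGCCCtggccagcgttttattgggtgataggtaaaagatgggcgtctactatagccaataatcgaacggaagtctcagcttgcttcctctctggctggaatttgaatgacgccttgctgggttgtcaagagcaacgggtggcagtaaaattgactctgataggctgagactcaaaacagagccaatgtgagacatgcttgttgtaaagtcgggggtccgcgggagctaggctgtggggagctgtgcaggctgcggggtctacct

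It held 1 GC box and 3 CCAAT boxes (CCAAT, either strand), against 37.4% of all windows with at least 1 CCAAT box. These matches describe the letters of the windows and say nothing of binding.

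The libraries held 12014203 to 14994173 counts. The 2 genes with the highest counts took an uneven part of them, from 1.27% to 20.9% of a library. In dTAG-13 this part was 12% and 20.2% in DHX35-dTAG cells against 1.27% and 2.02% in GPATCH1-dTAG cells, and in DMSO it was 3.15% and 1.54% against 4.23% and 20.9%. It thus separated the lines in dTAG-13, and the treatments within each line, in opposite directions. Leaving these 2 genes out changed no call of the 10 genes. Levels are therefore given as CPM, the count of a gene relative to its library's size, with sizes scaled by TMM, a normalization that sets the typical gene equal between libraries. One library stood apart, DMSO replicate 1 of the DHX35-dTAG line, whose mean correlation with the others was 0.976 against 0.988 to 0.990 for the rest, and the DMSO differences of the 10 genes are given with and without it. Those of other genes, lists and windows include it. The 8 embryonic stem cell markers, led by Pou5f1, summed to 4130 to 4560 CPM in DHX35-dTAG cells and 3880 to 4020 CPM in GPATCH1-dTAG cells. The 9 markers of other cell types, led by Cdx2, summed to 14.4 to 19.1 and 15.1 to 17.9 CPM, with none at 0 in all libraries.

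Gpatch1 was lower in every library of the line in which it was tagged, by a like amount with and without dTAG-13. In DHX35-dTAG cells it stood at 25.6 and 23.4 CPM in DMSO and at 23.2 and 23.7 CPM in dTAG-13. In GPATCH1-dTAG cells it stood at 7.31 and 6.90 CPM in DMSO and at 7.06 and 7.20 CPM in dTAG-13. The 4 libraries of each line lay close together and the lines did not overlap. In bulk RNA, fewer cells with a transcript and less of it per cell cannot be told apart, and counts per gene do not show from which exons the reads came. Behind these levels were 268 to 364 counts per library in the first line and 78 to 114 in the second, for a counting error of at most 11.3%. The group means were 24.5 ± 1.59 and 7.10 ± 0.295 CPM in DMSO (SD, n = 2) and 23.4 ± 0.378 and 7.13 ± 0.098 CPM in dTAG-13 (SD, n = 2).

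On the log2 scale, Gpatch1 differed by -1.78 (SE 0.12) between the lines in DMSO and by -1.72 (SE 0.12) in dTAG-13. The GPATCH1-dTAG line thus held 29.1% of the level of the other line in DMSO (95% interval 24.1 to 35.1) and 30.5% in dTAG-13 (25.3 to 36.7). Without the library that stood apart, the DMSO difference was -1.71. Of the 16371 genes tested, 58 had a difference this low or lower in DMSO and 32 in dTAG-13, Gpatch1 counted. Dhx35, the target tagged in the other line, stood at 72.3 to 84.8 CPM in the line in which it was tagged and at 58.1 to 64.9 CPM in GPATCH1-dTAG cells, with log2 differences of -0.39 and -0.40 between the lines (edgeR adjusted p = 0.29 and 0.27).

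**Figure D1:**
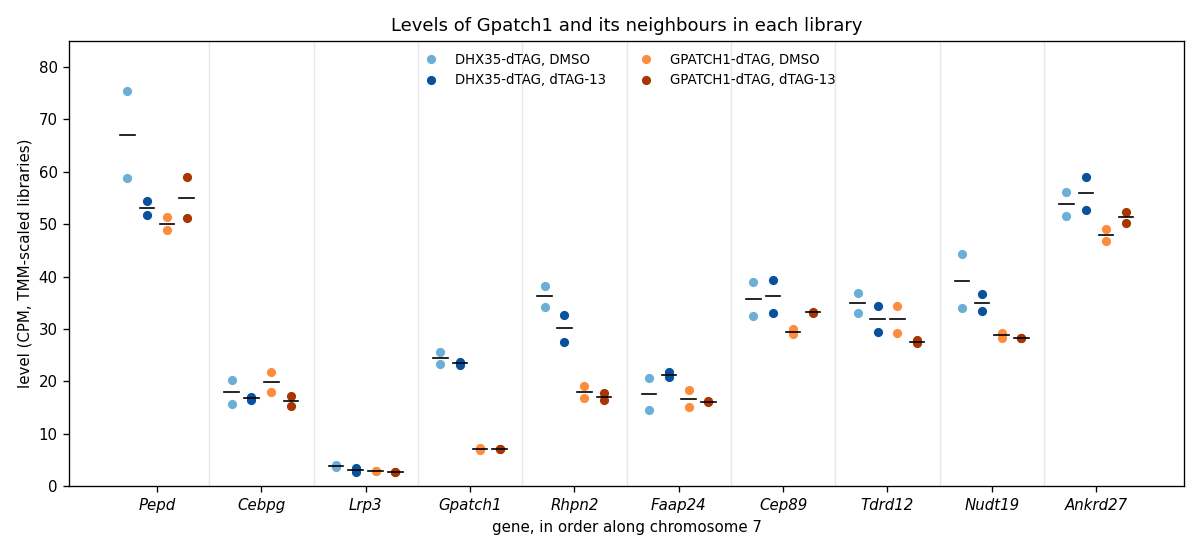
Levels of the 10 genes in each of the 8 libraries, in CPM on a linear axis, with genes in chromosomal order. Points are libraries, black dashes are means of the 2 libraries of a group, and the lines separate fully for Gpatch1 (23.2 to 25.6 against 6.90 to 7.31 CPM), Rhpn2 and Nudt19.

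Rhpn2, of the other genes tested the nearest to the Gpatch1 start, had the second largest difference among the 10. Its 4 libraries in DHX35-dTAG cells read 38.2 and 34.2 CPM in DMSO and 32.7 and 27.6 CPM in dTAG-13. In GPATCH1-dTAG cells they read 16.8 and 19.2 CPM in DMSO and 17.8 and 16.4 CPM in dTAG-13. The lowest value of the first line was above the highest of the second. In DMSO the log2 difference was -1.01 (SE 0.13), or 49.5% of the other line (95% interval 40.4 to 60.7), and it was -0.94 without the library that stood apart.

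In dTAG-13 the Rhpn2 difference was -0.82 (SE 0.13), or 56.8% (46.3 to 69.8). These libraries come from the same lines as those in DMSO, so the tests on the neighbours in them are not independent of the choice. The edgeR quasi-likelihood test did not pass over all genes in these libraries (Benjamini-Hochberg adjusted p = 0.10). DESeq2 put it under the threshold of 0.05 (adjusted p = 0.01), as did edgeR's test with only the 4 dTAG-13 libraries (adjusted p = 0.00032) and without an expression filter (adjusted p = 7.6e-05). Over all alternatives the adjusted p of this difference was between 7.6e-05 and 1. Its size was between -0.94 and -0.60. Across all genes tested, 2.51% lay at or below the Rhpn2 difference in DMSO and 2.13% in dTAG-13.

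Faap24 and Cep89, whose starts lie in the last window printed above, came next to the right, and each separated the lines in one treatment and not in the other. Faap24 had 14.6 and 20.6 CPM in DMSO and 21.7 and 20.9 CPM in dTAG-13 in DHX35-dTAG cells. In GPATCH1-dTAG cells it had 15.1 and 18.3 CPM in DMSO and 16.0 and 16.2 CPM in dTAG-13. Its lowest value was in the library that stood apart, and the lines overlapped in DMSO but not in dTAG-13. The log2 difference was -0.08 (SE 0.17) in DMSO, and -0.31 without that library, and it was -0.40 (SE 0.17, edgeR adjusted p = 0.57) in dTAG-13.

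Cep89 had 32.4 and 39.0 CPM in DMSO and 39.3 and 33.1 CPM in dTAG-13 in DHX35-dTAG cells. In the other line it had 30.0 and 29.0 CPM in DMSO and 33.3 and 33.1 CPM in dTAG-13. Here the lines were apart in DMSO and overlapped in dTAG-13. Its differences were -0.28 (SE 0.12) in DMSO, with -0.40 without the library that stood apart and -0.13 without the other library of its group, and -0.12 (SE 0.12, edgeR adjusted p = 0.88) in dTAG-13.

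Further to the right, Nudt19 was the third gene with no overlap between the lines. It read 44.3 and 34.0 CPM in DMSO and 33.4 and 36.6 CPM in dTAG-13 in DHX35-dTAG cells. It read 29.3 and 28.3 CPM in DMSO and 28.2 and 28.2 CPM in dTAG-13 in GPATCH1-dTAG cells. The 4 libraries of the second line were nearly equal, and the highest value of all came from the library that stood apart. The differences were -0.44 (SE 0.13) in DMSO, -0.24 without that library, and -0.31 (SE 0.13, edgeR adjusted p = 0.58) in dTAG-13. The antisense gene B230322F03Rik, which shares exon sequence with Nudt19, had only 9 to 33 counts per library and differences of -1.24 (SE 0.40) and -0.30 (SE 0.47). It is named here after its values were seen.

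Tdrd12 and Ankrd27 differed little. Tdrd12 lay between 29.5 and 36.9 CPM in DHX35-dTAG cells and between 27.3 and 34.4 CPM in GPATCH1-dTAG cells, with differences of -0.14 in DMSO and -0.21 in dTAG-13 (SE 0.12 each, edgeR adjusted p = 0.75 in dTAG-13). Without the library that stood apart the DMSO value was -0.06, and over all 4 libraries left out in turn it ran from -0.25, without replicate 2 of the GPATCH1-dTAG line, to -0.02, without replicate 1 of that line. In dTAG-13 it was -0.31 without replicate 1 of the DHX35-dTAG line and -0.10 without replicate 2. Ankrd27 lay between 51.5 and 59.0 CPM and between 46.7 and 52.4 CPM. Its differences were -0.17 in DMSO, -0.23 without the library that stood apart, and -0.12 in dTAG-13 (SE 0.10 each for the full fits, edgeR adjusted p = 0.83 in dTAG-13). Without replicate 2 of the DHX35-dTAG line the DMSO value of Ankrd27 was -0.09, and in dTAG-13 it was -0.04 without replicate 1 of that line and -0.20 without replicate 2. Over the 8 libraries the lines overlapped for both genes. Within a treatment, Ankrd27 separated the lines in DMSO and in dTAG-13, and Tdrd12 in dTAG-13 only, with GPATCH1-dTAG lower each time.

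To the left of Gpatch1, Lrp3 had the fewest counts of the 10 genes, 32 to 57 counts per library. It lay between 2.74 and 3.99 CPM in DHX35-dTAG cells and between 2.66 and 2.92 CPM in GPATCH1-dTAG cells. These ranges overlapped, but within each treatment the lines were apart, with GPATCH1-dTAG lower. The differences were -0.41 (SE 0.21) in DMSO, -0.35 without the library that stood apart, and -0.23 (SE 0.22, edgeR adjusted p = 0.87) in dTAG-13. In dTAG-13 the value for Lrp3 was -0.41 without replicate 1 of the DHX35-dTAG line and -0.04 without replicate 2. Cebpg was the only one of the 10 with a positive difference in DMSO, 0.14 (SE 0.15), which was 0.33 without the library that stood apart and -0.03 without the other library of its group, and it was -0.04 (SE 0.16, edgeR adjusted p = 0.98) in dTAG-13. Its libraries spanned 15.7 to 20.2 CPM in one line and 15.4 to 21.8 CPM in the other.

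Pepd, the outermost gene on the left, had 75.3 and 58.7 CPM in DMSO and 54.5 and 51.7 CPM in dTAG-13 in DHX35-dTAG cells. In GPATCH1-dTAG cells it had 51.4 and 48.8 CPM in DMSO and 58.9 and 51.1 CPM in dTAG-13. One value, from the library that stood apart, was well above all others. The difference was -0.42 (SE 0.13) in DMSO, -0.23 without that library, and 0.05 (SE 0.13, edgeR adjusted p = 0.97) in dTAG-13.

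By edgeR's test, 2 of the 10 genes, Gpatch1 and Rhpn2, had an adjusted p under 0.05 in DMSO, the contrast the choice of Gpatch1 rests on, where 0.0916% of all genes tested did (15 genes). With either DMSO replicate of the GPATCH1-dTAG line left out, the number was 1 and Rhpn2 was the gene lost (adjusted p = 0.50 and 0.35). With DMSO replicate 2 of the DHX35-dTAG line left out, which leaves the library that stood apart as the only one of its group, the number was 4, with Nudt19 at -0.61 and Pepd at -0.58 added, and 5887 genes were called in all. With only the 4 DMSO libraries in the fit, no gene of the 10 was called. In dTAG-13, 1 of the 10 was called, Gpatch1, which was chosen for this difference, and none of the 9 neighbours was, where 0.0916% of all genes were (15 genes). At an unadjusted p under 0.05 there were 4 of the 10 and 1386 of all genes in dTAG-13, and DESeq2 called Gpatch1 and Rhpn2 among 45 of all genes.

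Counted by direction, 8 of the 9 neighbours were lower in GPATCH1-dTAG cells in each treatment, where 51.3% of all genes tested were. Neighbouring genes are not independent of each other, so nothing is read from this count. With Gpatch1, chosen for being lower, it was 9 of the 10, but in dTAG-13 only 5 of the 10 when libraries were scaled by their totals alone. That scaling moved the median of all genes in dTAG-13 from -0.01 to 0.22, and relative to the median of all genes 9 of the 10 were lower under each of the 3 scalings. The median log2 difference of the 9 neighbours without Gpatch1 was -0.28 in DMSO and -0.21 in dTAG-13, against -0.01 for all genes in both. All 4 libraries of GPATCH1-dTAG cells lay below all 4 of DHX35-dTAG cells for 2 of the 9 neighbours, Rhpn2 and Nudt19, where 6.00% of all genes did so, and above them for none of the 9, where 5.63% of all genes did so. Gpatch1, chosen for being lower, is the third such gene, and nothing is read from these shares since they rest on the comparison behind the choice. The count of 3 became 5 without DMSO replicate 1 of the DHX35-dTAG line, and also 5 without dTAG-13 replicate 1 of the GPATCH1-dTAG line.

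**Figure D2:**
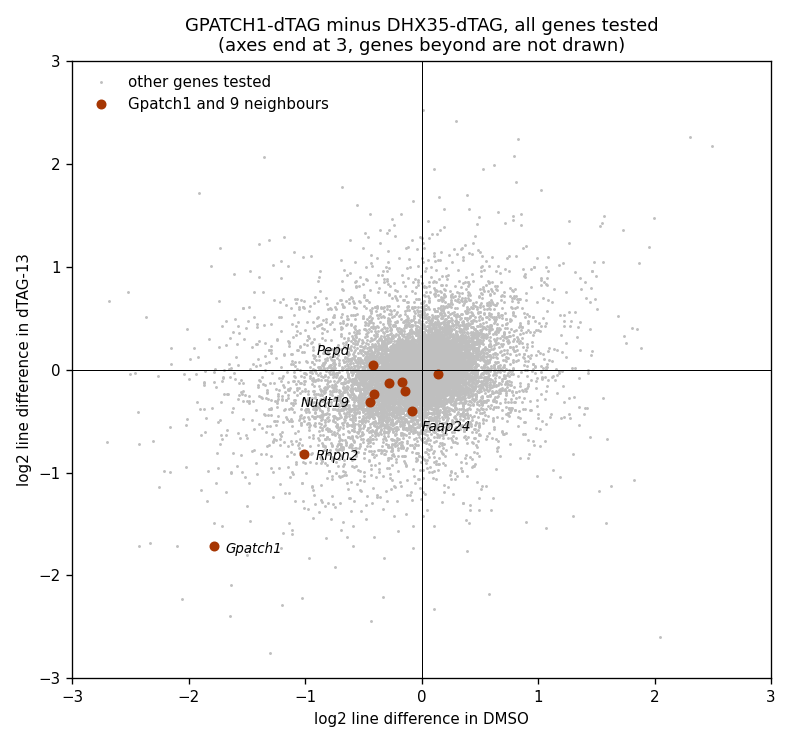
Log2 line difference (GPATCH1-dTAG minus DHX35-dTAG) of every gene tested in DMSO on the horizontal axis and in dTAG-13 on the vertical axis, with the 10 genes as large points. Gpatch1 (-1.78, -1.72) and Rhpn2 (-1.01, -0.82) lie to the lower left of the other 8, which lie nearer to 0, and 22 genes beyond the axis limits of 3 are not drawn.

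Set out by position, the medians were lower within 250 kb of Gpatch1 than over wider windows. Among genes tested with a start within 100 kb of the Gpatch1 start, the 3 besides Gpatch1 (Rhpn2, Faap24 and Cep89) had a median of -0.28 in DMSO and -0.40 in dTAG-13, and all 3 were lower in both. Within 250 kb the median of 9 genes was -0.28 and -0.23, within 500 kb that of 18 genes was -0.17 and -0.17, and within 1000 kb that of 24 genes was -0.15 and -0.12. The 1294 genes tested on chromosome 7 as a whole had medians of -0.02 and -0.01. The medians over these windows move by 0.02 to 0.19 between replicates (SD), and neighbouring genes are not independent of each other. All genes added beyond 500 kb lie on the left, so the steps between windows are not read as a trend with distance.

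The sides are given apart. Of the 12 genes on the left, between Gpatch1 and 1000 kb, 6 were lower in each treatment, with medians of 0.00 and -0.01. Of the 12 genes on the right, 9 were lower in DMSO and 10 in dTAG-13, with medians of -0.17 and -0.17. The sides cover unlike distances, since the genes tested on the right end at 484.6 kb and those on the left reach -953.1 kb. The medians of the sides are therefore not set against each other. The nearest genes tested outside the 10 were Cebpa, which encodes a C/EBP factor of myeloid and fat cells, at -199.1 kb, with differences of 0.10 (SE 0.39) and 0.02 (SE 0.38), and the pseudogene Gm18558, at 181.3 kb, with 0.36 (SE 0.39) and 0.23 (SE 0.40). No gene of the window other than Gpatch1 and Rhpn2 had an adjusted p under 0.05 in either line difference. The window held 51 annotated genes, of which 25 were tested and 10 had no count in any library.

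None of the 10 genes passed the threshold for a change after 4 h of dTAG-13 in either line. In DHX35-dTAG cells the log2 differences, dTAG-13 minus DMSO, ran from -0.33 for Pepd (SE 0.13, edgeR adjusted p = 0.71) to 0.27 for Faap24 (SE 0.17, edgeR adjusted p = 0.71). By edgeR, 0 of the 10 and 0% of all genes tested were called, while at an unadjusted p under 0.05 there were 1 of the 10, Pepd, and 882 of all genes. DESeq2 called none of the 10 and 1 of all genes. The values of the DMSO and dTAG-13 libraries did not overlap for 4 of the 10, Rhpn2, Pepd and Lrp3 lower and Faap24 higher, against 28.7% of all genes.

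Without DMSO replicate 2 of the DHX35-dTAG line, again leaving the library that stood apart alone in its group, 4 of the 10 were called in this response, together with 4949 genes in all. They were Rhpn2 at -0.33, Faap24 at 0.55, Nudt19 at -0.33 and Pepd at -0.49. Without replicate 1 in its place, none of the 10 was called and the same genes stood at -0.18, 0.05, 0.04 and -0.14.

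In GPATCH1-dTAG cells the responses ran from -0.28 for Cebpg (SE 0.16) to 0.17 for Cep89 (SE 0.13), each with an edgeR adjusted p of 1. The Cebpg response was -0.42 without DMSO replicate 1 of this line and -0.14 without replicate 2. Again edgeR called 0 of the 10 and 0% of all genes, and at an unadjusted p under 0.05 there were 0 of the 10 and 486 of all genes, and DESeq2 called none of the 10 and 0 of all genes. No overlap between DMSO and dTAG-13 libraries was seen for 6 of the 10, of which Cep89 and Ankrd27 were higher and Tdrd12, Nudt19, Cebpg and Lrp3 lower, against 41.8% of all genes. For Gpatch1 itself the response was 0.00 (95% interval -0.29 to 0.30), so changes down to 81.7% or up to 123% of the DMSO level lie within the interval. In DHX35-dTAG cells it was -0.06 (-0.31 to 0.18).

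**Figure D3:**
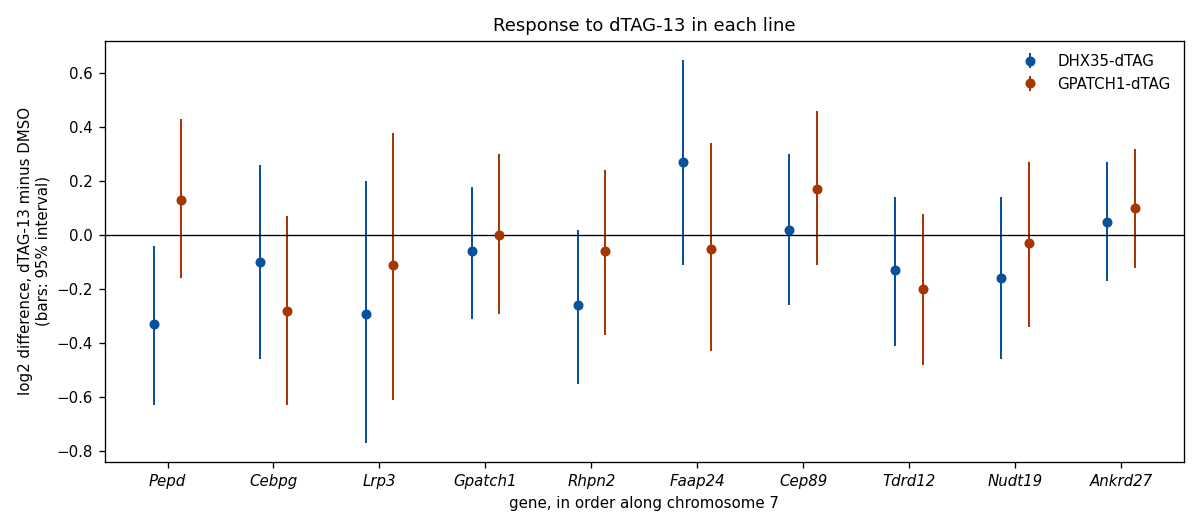
Log2 response to dTAG-13 (dTAG-13 minus DMSO) of the 10 genes in chromosomal order, in each line, with 95% intervals as bars. All intervals reach across 0 except that of Pepd in DHX35-dTAG cells (-0.33), whose adjusted p was 0.71 by edgeR.

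Whether the lines responded differently was tested as an interaction, and edgeR called 0 of the 10 and 0% of all genes. At an unadjusted p under 0.05 there were 1 of the 10, Pepd, and 640 of all genes, and DESeq2 called none of the 10 and 8 of all genes. Pepd had the largest value, 0.47 (95% interval 0.05 to 0.88, edgeR adjusted p = 0.86), followed in size by Faap24 at -0.32 (-0.85 to 0.22). For Gpatch1 it was 0.07 (-0.32 to 0.45) and for Rhpn2 0.20 (-0.22 to 0.61), the latter 0.07 to 0.32 without dTAG-13 replicate 2 or 1 of the DHX35-dTAG line. Without DMSO replicate 2 of the DHX35-dTAG line, Pepd at 0.63 and Faap24 at -0.59 were called, with 3592 genes in all, and without replicate 1 Pepd stood at 0.28 and Faap24 at -0.09 with none of the 10 called.

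Set by level per kilobase of exon, which allows genes to be compared, the 10 genes covered a wide range. Over all 8 libraries Pepd had the highest mean, 18.3 CPM per kb, followed by Nudt19 at 12.2, Faap24 at 9.12, Ankrd27 at 8.62, Tdrd12 at 7.28 and Cep89 at 6.62 CPM per kb. Lrp3 was lowest at 0.665 CPM per kb, at percentile 16.9 of all genes tested, and Pepd was at percentile 82.6. The place of Gpatch1 in this order depended on the line. In DHX35-dTAG cells it lay at 6.11 to 6.76 CPM per kb, within the range of Cep89 (6.38 to 7.73) in part and just above Rhpn2 (4.38 to 6.06). In GPATCH1-dTAG cells it lay at 1.82 to 1.93 CPM per kb, below Rhpn2 (2.60 to 3.04) and Cebpg (2.74 to 3.88) and above Lrp3 (0.567 to 0.621).

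For the pathways in which the 10 genes work, 10 lists, 1 for each gene and without the gene itself, held 90 genes tested. By edgeR, 0 of the 90 passed in either line difference, and DESeq2 called none of them. At an unadjusted p under 0.05 there were 11 of the 90 in DMSO, or 12.2% against 12.9% of all genes, and 6 in dTAG-13, or 6.67% against 8.47% of all genes. Without DMSO replicate 2 of the DHX35-dTAG line, 29 of the 90 were called in DMSO beside 5887 of all 16371 genes, and without replicate 1, 1 was beside 121, so nothing is read from these counts about the lists. In the list of spliceosome quality control and disassembly, 8 genes had medians of 0.06 in DMSO and 0.08 in dTAG-13, and the largest difference in dTAG-13 was that of Dhx35.

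Rhpn1, the other rhophilin, was at -0.42 (SE 0.24) in DMSO and -0.11 (SE 0.23) in dTAG-13. In what follows, paired medians are given for DMSO and then dTAG-13, and the difference of a single gene is that in dTAG-13. The 15 tested genes of the Fanconi core and anchor complex had medians of -0.12 and 0.01, with Fancf, a core subunit, at -0.31 (SE 0.45). The 7 distal appendage genes had medians of 0.07 and -0.09, with Sclt1, an appendage protein, at -0.32 (SE 0.14). In the piRNA list, 13 of 14 genes were tested, with medians of 0.02 and -0.03, and Piwil1, a PIWI protein, was at -1.04 (SE 0.31, edgeR adjusted p = 0.39).

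Of 8 genes of coenzyme A breakdown and synthesis 7 were tested, with medians of -0.12 and -0.05, and Coasy, the enzyme of the last steps of synthesis, was at -0.26 (SE 0.16). The 6 tested partners of Ankrd27 at endosomes had medians of 0.24 and 0.05, and the GTPase Rab21 was at 0.26 (SE 0.10, edgeR adjusted p = 0.53). The 8 genes of proline metabolism had medians of -0.05 and 0.06, with Aldh4a1, which makes glutamate from a proline breakdown product, at 0.24 (SE 0.12). The 8 genes of the C/EBP and Atf4 list had medians of 0.10 and 0.13, with Ddit3 at 0.29 (SE 0.21) and Cebpd at -0.29 (SE 0.41). Of the LDL receptor family 10 of 11 were tested, with medians of 0.05 and 0.05, and Lrp2, a large endocytic receptor, was at 0.34 (SE 0.08, edgeR adjusted p = 0.30). Every list median in these sentences stands beside a median of -0.01 over all genes.

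Across the 8 libraries, the correlation with Gpatch1 in log2 CPM was computed for 14606 genes with a mean of at least 1 CPM, as a description. The points share libraries, lines and depth, and the contrast between lines dominates them. Rhpn2 followed Gpatch1 most closely among the neighbours, with Pearson's r of 0.96 and place 35 among all genes. Nudt19 had r = 0.87 at place 286, and Lrp3 had r = 0.75. Cebpg, at r = -0.15, was the only neighbour with a negative value.

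The 5 genes most like Gpatch1 lay on other chromosomes. They were Ushbp1 (chromosome 8, r = 0.997), 1700013H16Rik (X, 0.992), Chd3 (11, 0.990), Smoc1 (12, 0.989) and Hbegf (18, 0.984). Ushbp1 stood at 3.50 to 3.92 CPM in DHX35-dTAG cells and at 0.177 to 0.324 CPM in GPATCH1-dTAG cells. Smoc1, which encodes a secreted calcium-binding protein, averaged 22.4 and 5.07 CPM. Chd3, a chromatin remodeller, differed less, with 30.0 to 31.1 and 19.3 to 21.1 CPM. The 5 genes with the most opposite pattern were Erdr1 (r = -0.999), Hist1h2ao (-0.993), Gm44466 (-0.987), Ephx2 (-0.986) and She (-0.985). Erdr1 stood at 7.02 to 9.49 CPM in DHX35-dTAG cells and at 65.1 to 72.4 CPM in GPATCH1-dTAG cells.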

How the data were processed

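RNA-seq was available from 8 libraries of mouse embryonic stem cells, 2 for each combination of line (DHX35-dTAG, GPATCH1-dTAG) and treatment (DMSO, 200 nM dTAG-13 for 4 h), grouped by the sample labels. The authors depleted ribosomal RNA, mixed in human DLD-1 RNA as a spike-in, made stranded libraries and deposited a table of raw counts of reads on genes for each library. The submitters' processing notes name FastQC 0.11.9, Trim Galore 0.6.6, STAR 2.7.5c, DESeq2 1.26.0 and the builds mm10 and hg19. The counting program, annotation and strand setting are not given in the sources used here. Spike-in reads were not used here.

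From the counts, line differences and responses were fitted with edgeR 4.0.16 in R 4.3.3 (quasi-likelihood test, TMM, filterByExpr, 1 term per group, all 8 libraries, Benjamini-Hochberg adjustment over 16371 genes, threshold 0.05). Standard errors are the log2 difference divided by the square root of F. The common dispersion of 0.0125 equals a replicate coefficient of variation of 11.2%. Library sizes of 12014203 to 14994173 counts give Gpatch1 a counting error of 5.24% to 11.3%. Positions and exon lengths come from GENCODE M21. Of 55291 symbols, 53180 matched 1 annotated gene. The fits were also run on simulated counts in which no library stood apart, so that run says nothing about the effect of such a library here.

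The genes and all lists were chosen with earlier results of these data known. The list made for Rhpn2 is not reported here by itself. The genes named besides the 10 included Dhx35, the nearest tested gene on each side and any called gene within 1000 kb of the Gpatch1 start. Each list reported by itself gave the gene with the largest absolute line difference in dTAG-13. Paralogs in the lists and the 5 genes most and least correlated with Gpatch1 were named too. Outside this rule, Pou5f1 and Cdx2 were named as the highest of their marker lists and Slc7a10 for the exon sequence it shares with Lrp3. B230322F03Rik was also named outside it, after its values were seen. Replicates of a group were not duplicates of each other (chi-square per gene of 5.32 to 132). Alternatives were DESeq2 1.42.0, DESeq2's size factors, library totals alone, only the 4 libraries compared, no expression filter, a filter of 10 counts per library, a replicate block, leaving out the 2 most counted genes, other window widths, and each library left out in turn.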

Additional observations from a re-analysis of the deposited data

How the results depend on the processing

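With 2 libraries per group, the line difference of Gpatch1 kept its direction in every alternative run, and so did that of Rhpn2, while the calls of the neighbours and most small differences depended on the settings. In DMSO, 2 of the 10 genes were called, 1 under the filter of 10 counts per library, 0 with only the 4 libraries compared, and 1 to 4 with a library left out. In dTAG-13, 1 was called, and 2 with DESeq2, without an expression filter and with only the 4 libraries compared. With a library left out, 0 to 4 were called in the response of DHX35-dTAG cells and 0 to 2 in the difference between the responses, the counts above 0 without DMSO replicate 2 of the DHX35-dTAG line. Calls among all genes moved more, in DMSO from 15 to 703 with library totals alone, 46 with DESeq2, 986 without a filter, 4 with at least 10 counts, 2 with only the 4 libraries, and 4 to 5887 with a library left out. In dTAG-13 the same settings moved them from 15 to 70, 45, 158, 4 and 342, and to 4 or 5 with a library left out. For the responses the counts of 0 became up to 345 in DHX35-dTAG cells, 127 in GPATCH1-dTAG cells and 179 for their difference over the settings that kept all libraries of the comparison. Of the genes in the 10 lists none was called, but in DMSO 3 were with library totals alone, 3 without a filter and 0 to 29 with a library left out (29 without DMSO replicate 2 of the DHX35-dTAG line), and in dTAG-13 2 were with only the 4 libraries compared.

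The median difference of the 25 genes within 1000 kb was -0.17 in DMSO and -0.12 in dTAG-13. With a library left out the DMSO value ran from -0.25, without DMSO replicate 2 of the GPATCH1-dTAG line, to -0.06, without replicate 1 of that line, and it was -0.23 without DMSO replicate 1 of the DHX35-dTAG line and -0.12 with at least 10 counts. In DMSO it was -0.65 within 100 kb and -0.34 within 250 kb, or -0.28 and -0.28 without Gpatch1. In dTAG-13 it was -0.61, -0.27 and -0.21 within 100, 250 and 500 kb, or -0.40, -0.23 and -0.17 without Gpatch1. It became -0.35 in DMSO and 0.09 in dTAG-13 with library totals alone, where the medians of all genes were -0.19 and 0.22, and in dTAG-13 -0.10 without a filter, -0.08 with at least 10 counts and -0.20 to -0.13 with a library left out.

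No value called with all 8 libraries reversed under the settings listed next, but the response of Nudt19 in DHX35-dTAG cells and the difference between responses of Faap24, called only without DMSO replicate 2 of the DHX35-dTAG line, are among the values that did. With library totals alone, the line difference reversed for Cebpg in DMSO (-0.05) and for Cep89 (0.09), Tdrd12 (0.02), Ankrd27 (0.10) and Cebpg (0.18) in dTAG-13. So did the responses of Cep89 (-0.22) and Ankrd27 (-0.18) in DHX35-dTAG cells and of Rhpn2 (0.11), Faap24 (0.13), Nudt19 (0.13) and Lrp3 (0.05) in GPATCH1-dTAG cells, and the difference between responses of Faap24 (0.10), Tdrd12 (0.35) and Cebpg (0.24). With a library left out, the line difference in DMSO ran from -0.31 to 0.19 for Faap24 and from -0.03 to 0.33 for Cebpg, and that in dTAG-13 from -0.25 to 0.01 for Cep89, -0.05 to 0.15 for Pepd and -0.12 to 0.04 for Cebpg. The response in DHX35-dTAG cells ran from -0.11 to 0.17 for Cep89, -0.33 to 0.04 for Nudt19, -0.03 to 0.14 for Ankrd27 and -0.27 to 0.10 for Cebpg, and in GPATCH1-dTAG cells from -0.16 to 0.03 for Rhpn2 and -0.18 to 0.09 for Faap24. The difference between responses ran from -0.08 to 0.30 for Nudt19, -0.19 to 0.04 for Tdrd12 and -0.04 to 0.13 for Ankrd27. The cause was not tested, save that library totals alone shift the median of all genes.

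The main fits did not pair libraries by replicate number. Same-numbered libraries of different groups correlated in their deviations by 0.037 to 0.23, which does not settle whether they share a batch. With a replicate block, 2 of the 10 genes were called in DMSO, 1 in dTAG-13 and 0 in each of the other 3 comparisons, and among all genes 16, 19, 0, 0 and 2. The block changed no call of the 10 genes. DESeq2's size factors and leaving out the 2 most counted genes changed none either. Fits that leave out a library assume that the lone library of a group varies like the others. Lrp3, with 32 to 57 counts per library, is the gene least well measured.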
